A study of Mus musculus with 2 samples.

Results

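Described here are 10 genes of the p53 response and of cell cycle arrest, out of 31053 genes counted, in single fibro/adipogenic progenitors (FAPs) of mouse limb muscle. They were chosen by name, by no rule on their values, though with earlier results of these data known: *Trp53* itself, its target and regulator *Mdm2*, the p53 targets *Cdkn1a*, *Ccng1*, *Bax* and *Gdf15*, and the cyclin-dependent kinase (CDK) inhibitors *Cdkn1b*, *Cdkn2a*, *Cdkn2b* and *Cdkn2c*. FAPs (negative for 7AAD, lineage markers and Vcam, positive for Sca1) were sorted from limb muscle of 3-week-old mice on a C57BL/6 background and measured by droplet scRNA-Seq, which counts unique molecular identifiers (UMIs) at the 3′ end of transcripts. Both genotypes carry the floxed *Bap1* alleles (*Bap1* f/f). *Bap1* ΔMPC mice carry Prx1-Cre in addition, which is active in limb mesenchymal progenitors and their descendants and not in FAPs alone, and *Bap1* WT mice carry no Cre. Each genotype was measured in 1 library, so no difference between them could be tested, and every interval given is an exact 95% interval of counting error only. Whether the cells of a library came from 1 animal or several is not given in the sources used here.

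The tumor suppressor p53, encoded by *Trp53*, is a transcription factor that is stabilized by DNA damage and other stress and then raises the transcription of genes that halt the cell cycle, repair DNA or start apoptosis. One of its targets, *Mdm2*, encodes the ubiquitin ligase that sends p53 itself to the proteasome, which closes a feedback loop. Cyclin-dependent kinase inhibitors stop the cycle by binding the kinases that drive it. The Cip/Kip inhibitors p21 (*Cdkn1a*) and p27 (*Cdkn1b*) act on cyclin-CDK complexes broadly, and the Ink4 inhibitors, encoded by *Cdkn2a*, *Cdkn2b* and *Cdkn2c*, act on the CDK4 and CDK6 kinases. *Cdkn2a* also encodes the Arf protein, which blocks the MDM2 protein, from an alternative first exon, and the counts used here cannot tell the Ink4a and Arf transcripts apart. *Bap1* encodes a nuclear deubiquitinating enzyme that acts on histone H2A. FAPs are interstitial mesenchymal cells of muscle that are mostly quiescent in the resting adult tissue.

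The promoters of the members show which of them hold the p53 half-site consensus, the 10-base palindromic motif to which a p53 dimer binds, close to the start site. RefSeq promoter windows of 300 bases, from 250 before to 50 after the start (GRCm38.p6), were found for all 10 members, in 14 windows. The half-site consensus, which reads the same on both strands, was present in the windows of 5 members, namely *Trp53*, *Mdm2*, *Cdkn1a*, *Ccng1* and *Bax*, and in 8.36% of all 32851 windows in the table. The 5 stretches are given 5′ to 3′ on the strand of the gene, with the half-site in capitals and 20 bases on each side.
*Cdkn1a*, chr17:29090886-29090957, plus strand: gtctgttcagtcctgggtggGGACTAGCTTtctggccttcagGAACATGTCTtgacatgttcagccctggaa
*Mdm2*, chr10:117710915-117710964, minus strand: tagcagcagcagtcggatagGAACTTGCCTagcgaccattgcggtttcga
*Ccng1*, chr11:40755442-40755491, minus strand: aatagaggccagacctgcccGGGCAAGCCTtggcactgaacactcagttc
*Bax*, chr7:45467070-45467119, minus strand: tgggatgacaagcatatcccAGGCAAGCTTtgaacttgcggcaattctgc
*Trp53*, chr11:69580264-69580313, plus strand: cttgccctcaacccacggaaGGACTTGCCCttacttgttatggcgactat
*Cdkn1a* was the only one of the 5 with 2 half-sites in its windows, which ended at -64 and -42 from the start site. The windows of *Cdkn1b*, *Cdkn2a*, *Cdkn2b*, *Cdkn2c* and *Gdf15* did not hold these letters, which says nothing on sites elsewhere in those genes. A match is a description of the sequence and not a measured binding site.

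The library labelled *Bap1* WT (the WT-labelled library) held 4103 cells with 51015705 UMIs in all, and the one labelled *Bap1* ΔMPC (the ΔMPC-labelled library) held 4378 cells with 49540066 UMIs in all. The median depth was 12232 and 11018 UMIs per cell, and 5 barcodes occurred in both libraries among 8481 cells. *Bap1* itself was not lower in the ΔMPC-labelled library, with 17.6 UMIs per 1000000 UMIs (CPM) in the WT-labelled library and 21.6 CPM in the other. Counts at the 3′ end do not show which exons a transcript held, so they neither check nor question the deletion, and the libraries are named by their labels. The 5 FAP markers (*Pdgfra*, *Ly6a*, *Cd34*, *Dcn* and *Pdgfrb*) were present, with a UMI of *Pdgfra* in 93.9% and 84.1% of the cells and a UMI of *Dcn* in 99.95% of the cells of each library. Among immune markers *Ptprc* and *Cd3e* were at 0 in both libraries, while the summed level of the list was 6.55 and 14.7 CPM in the WT-labelled library and the ΔMPC-labelled library. Summed levels of adipocyte markers were 1.37 and 28.1 CPM, of Schwann markers 21.2 and 67.3 CPM (*S100b* alone 16.8 and 63.7 CPM), of endothelial markers 13.5 and 9.33 CPM, of mural markers 28.6 and 33.7 CPM, of muscle stem cell markers 37.7 and 20.6 CPM (*Vcam1* alone 37.6 and 20.5 CPM, with *Pax7*, *Myf5* and *Myod1* at 0), of myofiber markers 60.5 and 35.8 CPM, and of erythroid markers 37.8 and 23.6 CPM. The share of cells with at least 2 UMIs of *Mki67* and *Top2a*, called cycling here, was 1.41% and 2.56%. Scaling by trimmed mean of M-values (TMM) in place of total UMIs would lower the log2 ratios between the libraries by 0.10 over all cells, which turns *Cdkn2c* to -0.035 and *Ccng1* to -0.039 and no other member, and log2 ratios between cycling and other cells by 0.19 and 0.10.

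Of the 9 members with 100 or more UMIs in both libraries together, *Gdf15*, *Cdkn2b* and *Cdkn1a* were higher by more than 1.5-fold in the ΔMPC-labelled library, and none was lower by that much. Ratios are log2 values of CPM in the ΔMPC-labelled library over CPM in the WT-labelled library. With the same minimum, 3 of 9 members were past 1.5-fold, beside 17.6% of 12388 genes. *Cdkn2b*, with 50 UMIs in the WT-labelled library, passed the minimum only through its 110 UMIs in the ΔMPC-labelled library. Of the genes past 1.5-fold, 53.7% were higher in the ΔMPC-labelled library, and 42.8% with TMM scaling. The median log2 ratio of the 9 members was 0.34 and that of all genes was 0.10. Of the 9 members, 8 had a ratio above 0, beside 62.1% of all genes. With *Cdkn2a*, which is under the minimum of 100 UMIs, included, the exact interval of the ratio lay above 0 for 7 members. It lay below 0 for *Cdkn1b* and held 0 for *Cdkn2c* and *Ccng1*. For *Mdm2* the lower bound was 0.096, less than the 0.097 by which TMM scaling would lower the ratio. The share of all genes with an interval off 0 was not counted.

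**Figure D1:**
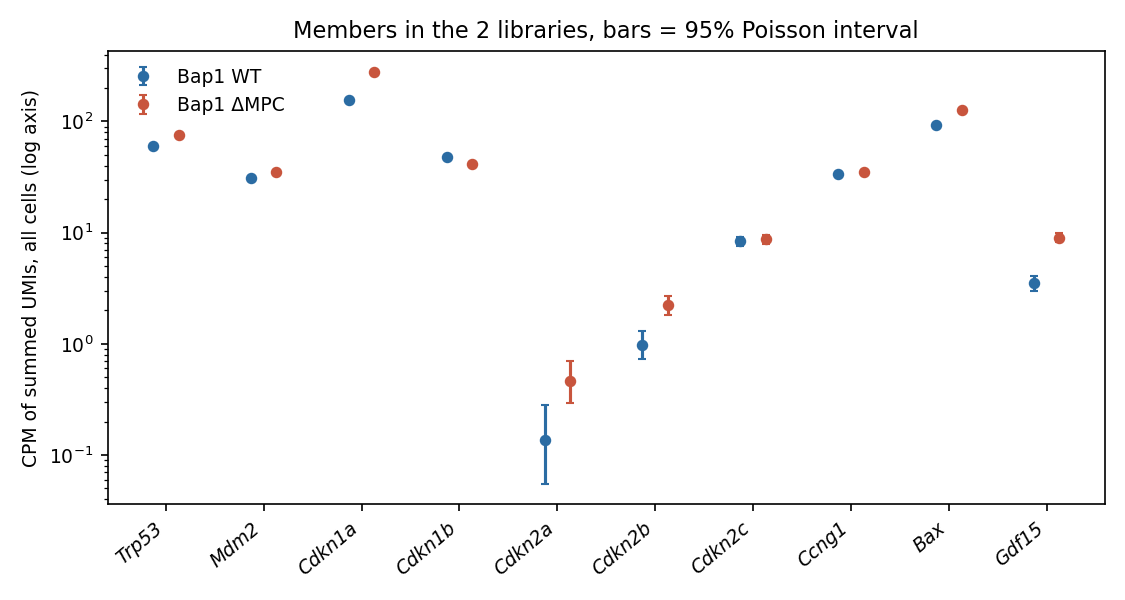
CPM of summed UMIs over all cells, on a log axis, for the 10 members in the WT-labelled library (blue) and the ΔMPC-labelled library (red), with exact 95% Poisson intervals. Only the intervals of *Cdkn2c* and *Ccng1* overlap between the libraries, and *Cdkn1b* is the member that is lower in the ΔMPC-labelled library. How many of all genes have intervals without overlap was not counted.

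*Cdkn1a* (chr17:29090976-29100727 in mm10, plus strand), the p53 target whose product p21 inhibits cyclin-CDK complexes, was the most abundantly counted member and one of the 3 past 1.5-fold. It had 8004 UMIs or 157 CPM in the WT-labelled library and 13761 UMIs or 278 CPM in the ΔMPC-labelled library. The log2 ratio was 0.82 (0.78 to 0.86), a 1.77-fold higher level. A UMI of *Cdkn1a* was found in 53.9% (52.4 to 55.4) of the cells of the WT-labelled library and in 69.2% (67.8 to 70.6) of those of the other. Expected shares at 5000 UMIs per cell, which left out 120 and 210 shallower cells, were 38.0% and 55.0%. Cells with 10 or more *Cdkn1a* UMIs numbered 138 and 300, and the highest single cell had 35 and 71 UMIs. The 1% of cells with the most *Cdkn1a* UMIs held 10.3% and 9.10% of them, so no small set of cells held most of them.

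*Cdkn1a* can also be induced by serum and stress, as immediate early genes are, so its level was read beside a list of 17 immediate early and heat shock genes (such as *Fos*, *Jun* and *Egr1*). The list summed to 20601 CPM in the WT-labelled library and 22360 CPM in the ΔMPC-labelled library, with medians of 189 and 213 UMIs per 10000 per cell. Of its 17 genes, 1 was higher and 2 were lower by more than 1.5-fold, beside 9.48% and 8.17% of all genes. On the log2 scale *Hspa1b* was at -1.41, *Hspa1a* at -0.91 and *Atf3* at 0.76. When the cells of both libraries were divided into 4 bins of equal size by this summed level, *Cdkn1a* was higher in cells with more of it in both libraries. From the lowest to the highest bin, *Cdkn1a* had 85.4, 157, 201 and 203 CPM in the WT-labelled library. In the ΔMPC-labelled library it had 184, 254, 303 and 358 CPM. Within every bin the ΔMPC-labelled library had the higher level, with log2 ratios of 1.11, 0.70, 0.59 and 0.82. With both libraries brought to the same mix of bins, an alternative chosen after the data were seen, the log2 ratio of *Cdkn1a* was 0.76. *Bax*, by contrast, was lower in cells with more immediate early UMIs, at 111 CPM in the lowest and 76.3 CPM in the highest bin of the WT-labelled library and at 145 and 109 CPM in the ΔMPC-labelled library. A part of tissue handling in these levels was not tested.

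**Figure D2:**
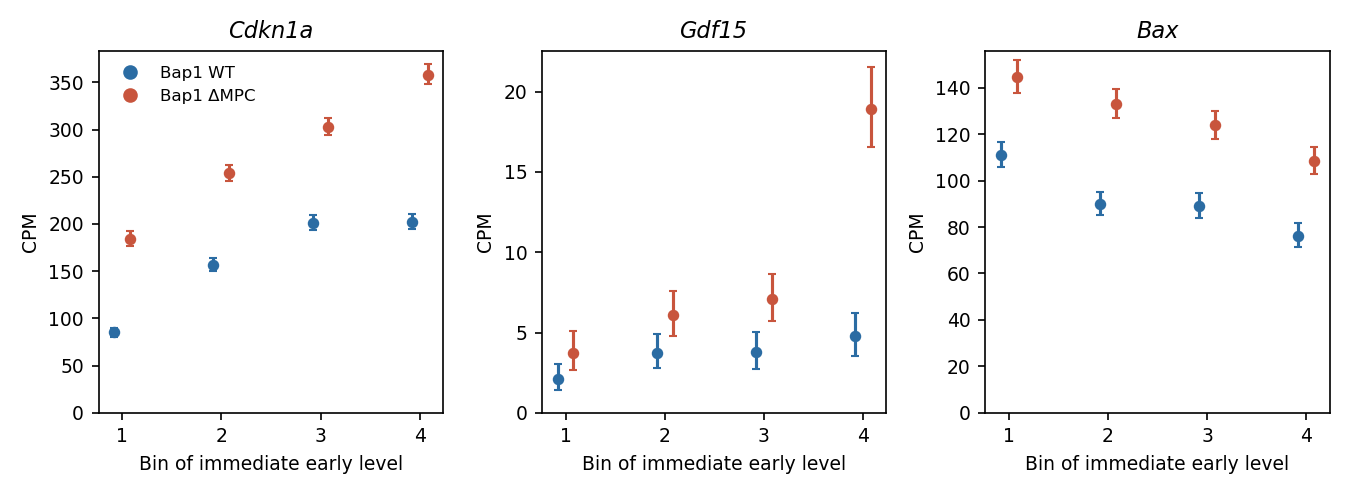
CPM of *Cdkn1a*, *Gdf15* and *Bax* by bin of the summed immediate early level per cell (1 lowest, 4 highest), in the WT-labelled library (blue) and the ΔMPC-labelled library (red), with exact 95% Poisson intervals. From bin 1 to bin 4 *Cdkn1a* goes from 85.4 to 203 CPM and from 184 to 358 CPM, *Bax* is lowest in bin 4 of both libraries, and *Gdf15* is at 18.9 CPM in the highest bin of the ΔMPC-labelled library.

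*Gdf15* (chr8:70629393-70632456, minus strand), which encodes a secreted factor of the TGF-β superfamily that p53 and the integrated stress response induce, had the largest ratio of the 9 members with 100 or more UMIs. It had 179 UMIs or 3.51 CPM in the WT-labelled library and 447 UMIs or 9.02 CPM in the ΔMPC-labelled library. The log2 ratio was 1.36 (1.11 to 1.62), or 2.57-fold. Its UMIs lay in few cells. A UMI was found in 2.29% (1.86 to 2.80) and 3.97% (3.42 to 4.60) of the cells, and at 5000 UMIs per cell in 1.248% and 2.39%. The highest single cell had 14 and 38 UMIs, and the 1% of cells with the most *Gdf15* UMIs held 70.4% and 63.1% of them. By immediate early bin, *Gdf15* had 2.13, 3.74, 3.77 and 4.76 CPM in the WT-labelled library. In the ΔMPC-labelled library it had 3.74, 6.09, 7.10 and 18.9 CPM, so that the log2 ratio was between 0.70 and 0.91 in the 3 lower bins and 1.99 in the highest. Macrophages can also make *Gdf15*, and the macrophage genes *Lyz2* (2.14 and 6.80 CPM) and *Cd68* (3.53 and 5.77 CPM) were higher in the ΔMPC-labelled library. Leaving out the cells that held any UMI of the immune list, an alternative chosen after the data were seen, left 3840 and 3862 cells. In these *Gdf15* was at 3.62 and 9.79 CPM, with a log2 ratio of 1.44. A part of macrophage RNA in the *Gdf15* levels was not tested. Of 13 measured genes of the integrated stress response, 7 had a log2 ratio above 0 and 6 below, with a median of 0.18, and its central factor *Atf4* was at -0.040. Past 1.5-fold, 3 were higher, beside 9.48% of all genes, and none was lower. The 3 were *Trib3*, a pseudokinase induced by ATF4, at 1.46, the transcription factor *Atf3* at 0.76 and *Ppp1r15a*, a subunit of the phosphatase that restores translation, at 0.66.

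*Bax* (chr7:45461697-45466898, minus strand), which encodes the protein that permeabilizes the mitochondrial outer membrane in apoptosis, had 92.8 CPM (4735 UMIs) in the WT-labelled library and 127 CPM (6293 UMIs) in the ΔMPC-labelled library. The log2 ratio of 0.45 (0.40 to 0.51) was 1.37-fold and did not pass 1.5-fold. The share of cells with a UMI of *Bax* was 63.8% and 70.2%, and 36.2% and 45.2% at 5000 UMIs per cell. Among 16 other genes of the Bcl-2 family, 13 were measured. Of the 13, 1 was higher and 2 were lower past 1.5-fold, beside 9.48% and 8.17% of all genes. These were *Bok*, a *Bax*-like effector, at 0.84, the antiapoptotic *Bcl2* at -1.05 and *Bnip3*, a BH3-domain protein of mitochondria, at -0.65. *Bcl2* had 26.1 CPM in the WT-labelled library and 12.6 CPM in the other.

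*Trp53* (chr11:69580359-69591873, plus strand) had 60.0 CPM (3063 UMIs) in the WT-labelled library and 76.0 CPM (3767 UMIs) in the ΔMPC-labelled library, a log2 ratio of 0.34 (0.27 to 0.41). *Mdm2*, which encodes the p53 ubiquitin ligase, had 30.8 CPM (1570 UMIs) and 35.2 CPM (1745 UMIs), a log2 ratio of 0.19 (0.10 to 0.29). *Ccng1*, which encodes cyclin G1, a p53 target that recruits a phosphatase to the MDM2 protein, had 33.8 CPM (1726 UMIs) and 35.2 CPM (1746 UMIs), a log2 ratio of 0.059 (-0.038 to 0.16). None of these 3 passed 1.5-fold. The shares of cells with a UMI were 50.8% and 53.3% for *Trp53*, 31.2% and 31.0% for *Mdm2*, and 32.6% and 30.6% for *Ccng1*. At 5000 UMIs per cell they were 25.6% and 30.7%, 14.2% and 15.7%, and 15.2% and 15.6%, so that for *Mdm2* and *Ccng1* the order of the libraries turned with the depth and no order was read from the shares.

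The CDK inhibitors other than *Cdkn1a* differed in direction. *Cdkn1b* had 47.8 CPM (2440 UMIs) in the WT-labelled library and 41.7 CPM (2066 UMIs) in the ΔMPC-labelled library, the only member with an interval of the ratio below 0, at -0.20 (-0.28 to -0.11). *Cdkn2b* (chr4:89306299-89311039, minus strand), whose product p15 is induced by TGF-β, had 50 UMIs or 0.98 CPM and 110 UMIs or 2.22 CPM, a log2 ratio of 1.18 (0.68 to 1.69). These UMIs came from 45 of 4103 and 67 of 4378 cells, or 1.10% and 1.53%. Its neighbor *Cdkn2a* (chr4:89274471-89294653, minus strand), separated from *Cdkn2b* by 11646 bases, had 7 UMIs in 7 cells and 23 UMIs in 20 cells, too few for the minimum of 100 UMIs. Its ratio of 1.76 had an interval from 0.49 to 3.22. *Cdkn2c* (chr4:109660876-109667189, minus strand), which encodes p18, had 8.33 and 8.70 CPM (425 and 431 UMIs), a log2 ratio of 0.063 (-0.13 to 0.26). A UMI of it was found in 7.46% (6.67 to 8.30) and 4.57% (3.97 to 5.23) of the cells, and at 5000 UMIs per cell in 3.43% and 2.42%. With each cell weighted equally in place of each UMI, its log2 ratio was -0.21, and with both libraries brought to the same mix of Dpp4-type and cycling cells it was -0.35. The libraries held no cell type known to lack these genes, and transcripts of red cells (the erythroid list) were found in 10.6% and 11.7% of cells. The shares of *Cdkn2a*, *Cdkn2b*, *Cdkn2c* and *Gdf15* over all cells lay below these and are not read as shares of expressing cells. The part of free RNA in them was not tested.

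The 3 further CDK inhibitor genes that are not members were given for comparison. *Cdkn1c*, which encodes p57, had 493 CPM in the WT-labelled library and 358 CPM in the ΔMPC-labelled library, a log2 ratio of -0.46. *Cdkn2d*, the fourth Ink4 gene, had 39.9 and 26.0 CPM, a log2 ratio of -0.62. *Cdkn3*, a phosphatase that acts on CDKs and is counted in dividing cells, had 3.59 and 4.54 CPM, a log2 ratio of 0.34. Of these 3, *Cdkn2d* was past 1.5-fold.

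Of 44 genes on a list of other p53 targets, 41 had 100 or more UMIs, 8 were higher and 2 were lower past 1.5-fold in the ΔMPC-labelled library, and their median log2 ratio was 0.15. Over all genes 9.48% were higher and 8.17% lower past that size, and the median was 0.10. The largest ratios were those of *Perp*, a membrane protein of desmosomes, with 24 and 106 UMIs and a log2 ratio of 2.19, *Cd82*, a tetraspanin, with 31 and 99 UMIs and a log2 ratio of 1.72, and *Polk*, a translesion DNA polymerase, with 556 and 221 UMIs and a log2 ratio of -1.29. The other 6 higher genes, named after their values were seen, were *Rprm*, *Gtse1*, *Tnfrsf10b*, *Ak1*, *Steap3* and *Tap1*. The other lower gene was *Pltp*. *Perp*, *Cd82* and *Gtse1* (41 and 77 UMIs) passed the minimum of 100 UMIs only through their higher counts in the ΔMPC-labelled library. Among other targets, *Zmat3* was at 0.15, *Sesn2* at 0.19, *Bbc3*, which encodes the proapoptotic protein Puma, at -0.06, and *Phlda3* at -0.40. These 4 genes were chosen after their values were seen. Regulators of p53 had 1 gene of 25 past 1.5-fold, *Brca1* at 1.06, beside 17.6% of all genes. With 38 and 77 UMIs, *Brca1* also passed the minimum only through its higher count in the ΔMPC-labelled library. The next by size were *Chek1* at 0.45 and *Trp53bp2* at -0.35.

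Of 28 proliferation genes, 28 had a log2 ratio above 0 and 20 were higher past 1.5-fold, with a median of 0.78, beside 62.1% of all genes above 0 and 9.48% higher past that size. Those with the largest ratios were *Uhrf1*, which maintains DNA methylation, at 1.60, *Prc1*, which bundles the spindle midzone, at 1.12, and *Mcm5*, a subunit of the replicative helicase, at 1.09. In cells not called cycling, 18 of the 28 had 100 or more UMIs and 6 were higher past 1.5-fold, beside 8.80% of all genes. Among G1 cyclins, their kinases and Rb and E2F genes, 3 of 17 were higher and 1 was lower past 1.5-fold, beside 9.48% and 8.17% of all genes. The largest ratios were those of *Ccne2* (cyclin E2) at 1.52, the kinase *Cdk6* at -0.91 and *Rbl1* (p107) at 0.83. Of 16 measured genes of the senescence-associated secretory list, none was higher and 3 were lower, beside 8.17% of all genes, the metalloprotease *Mmp3* at -1.38, the chemokine *Cxcl2* at -1.27 and *Igfbp3* at -1.24.

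The ratio of each member was also taken within Dpp4-type and within other cells. Dpp4-type cells, defined by a sum of *Pi16*, *Sema3c*, *Anxa3* and *Efemp1* of 25 or more UMIs per 10000, numbered 1050 (25.6%) in the WT-labelled library and 1251 (28.6%) in the ΔMPC-labelled library. The higher *Cdkn1a* was found in both kinds of cells, and *Gdf15* and *Cdkn2b* were past 1.5-fold among the other cells, where most of their UMIs lay. In Dpp4-type cells *Cdkn1a* had 170.1 and 324 CPM, a log2 ratio of 0.93 (0.86 to 0.999), and in other cells 152 and 258 CPM, a log2 ratio of 0.77 (0.72 to 0.82). *Bax* was at 0.46 and 0.44. Past 1.5-fold were 1 of 7 members in Dpp4-type cells, beside 13.6% of all genes. In other cells 3 of 9 members were, beside 18.0% of all genes. *Cdkn2b* was among the 9 only through its 106 UMIs in the ΔMPC-labelled library. *Gdf15* had 22 and 30 UMIs in Dpp4-type cells, with a log2 ratio of 0.38 (-0.46 to 1.246), and 157 and 417 UMIs in other cells, with a log2 ratio of 1.49 (1.23 to 1.77). *Cdkn2b* had 4 UMIs in the Dpp4-type cells of each library and 46 and 106 UMIs in other cells, with a log2 ratio of 1.29 (0.78 to 1.82) there. *Trp53* was at 0.10 (-0.05 to 0.24) in Dpp4-type and 0.42 (0.35 to 0.50) in other cells, and *Cdkn1b* at 0.04 (-0.12 to 0.21) and -0.28 (-0.38 to -0.18). Whether the ratios differed between the kinds of cells was not tested.

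**Figure D3:**
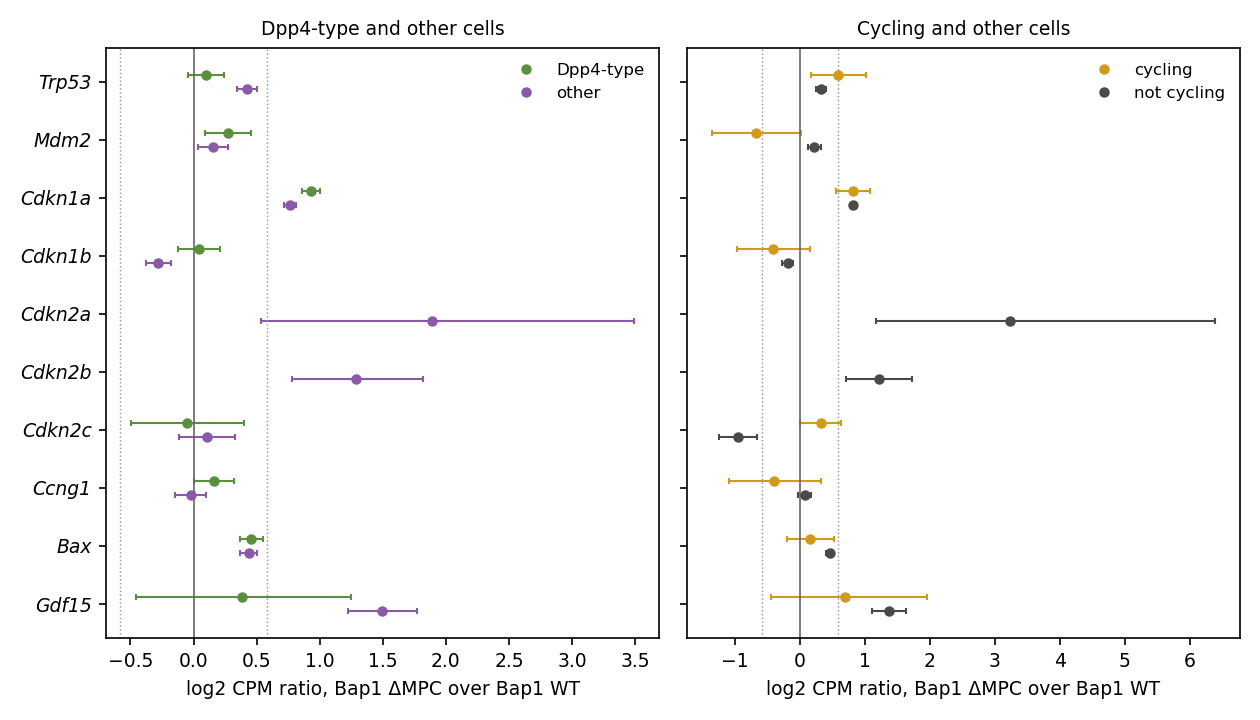
Log2 ratios of CPM, ΔMPC-labelled library over WT-labelled library, within Dpp4-type and other cells (left) and within cycling and other cells (right), with exact 95% intervals. Members with fewer than 20 UMIs in a comparison or with a count of 0 are left out, dotted lines mark 1.5-fold, *Cdkn1a* sits to the right of 0 in all 4 kinds of cells, and *Cdkn2c* lies at 0.32 in cycling and -0.95 in other cells.

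Within each library, members fell into those higher and those lower in Dpp4-type cells. The direction was the same in both libraries for 9 of 10 members, and the share of all genes with the same direction was not counted. The 9 include *Cdkn2a*, with only 1 and 6 UMIs in Dpp4-type and other cells of the WT-labelled library. In the WT-labelled library 1 of 8 members was past 1.5-fold, beside 21.8% of all genes, and in the ΔMPC-labelled library 5 of 9 members (*Ccng1* higher, and *Trp53*, *Cdkn2b*, *Cdkn2c* and *Gdf15* lower), beside 22.2% of all genes. These counts are not compared between the libraries, since *Cdkn2b* passed the minimum of 100 UMIs only in the ΔMPC-labelled library, through the 106 UMIs of its other cells, and *Trp53* lay at the edge of 1.5-fold there. *Ccng1* had 42.1 CPM in Dpp4-type and 30.7 CPM in other cells of the WT-labelled library, and 47.1 and 30.2 CPM in the ΔMPC-labelled library, log2 ratios of 0.46 (0.31 to 0.60) and 0.64 (0.50 to 0.78). *Bax* was higher in Dpp4-type cells by 0.36 and 0.38, *Cdkn1a* by 0.16 and 0.32, and *Mdm2* was at 0.08 (-0.09 to 0.23) and 0.19 (0.04 to 0.33). Of 34 other p53 target genes measured in the WT-labelled library, 1 was higher and 4 were lower past 1.5-fold, beside 8.68% and 13.2% of all genes. Of 39 in the ΔMPC-labelled library, 2 were higher and 7 were lower, beside 7.93% and 14.3% of all genes. The median log2 ratios of these targets were 0.06 and 0.05, beside -0.01 and -0.04 for all genes. *Gdf15* was lower in Dpp4-type cells, with 1.56 and 4.25 CPM in Dpp4-type and other cells of the WT-labelled library and 2.03 and 12.0 CPM in the ΔMPC-labelled library, log2 ratios of -1.45 (-2.16 to -0.80) and -2.56 (-3.15 to -2.03). *Cdkn2b* was at -2.14 and -3.49, *Cdkn2c* at -0.57 and -0.73, and *Trp53* at -0.26 and -0.59. The summed immediate early level was also lower in Dpp4-type cells, at 16317 against 22240 CPM in the WT-labelled library and 16527 against 24838 CPM in the ΔMPC-labelled library. Its part in these ratios was not tested. Median depth was 13635 UMIs in Dpp4-type and 11829 in other cells of the WT-labelled library, and 11661 and 10733 in the ΔMPC-labelled library.

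**Figure D4:**
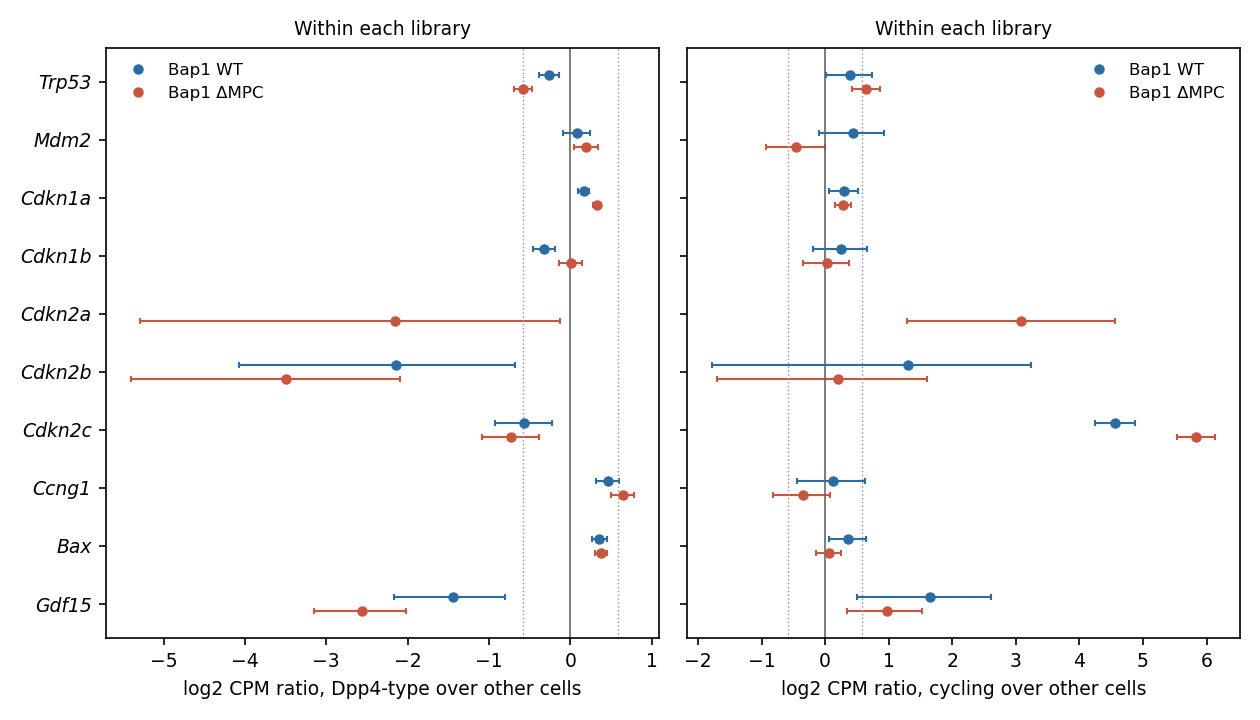
Log2 ratios of CPM within each library, Dpp4-type over other cells (left) and cycling over other cells (right), for the WT-labelled library (blue) and the ΔMPC-labelled library (red), with exact 95% intervals, dotted lines at 1.5-fold, and without members under 20 UMIs in a comparison. *Gdf15* and *Cdkn2b* lie left of 0 and *Ccng1* right of 0 on the left, and *Cdkn2c* lies past 4 on the right.

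Cycling cells were 58 in the WT-labelled library, of which 21 were Dpp4-type, and 112 in the ΔMPC-labelled library, of which 28 were Dpp4-type. *Cdkn2c* had the largest ratio of cycling over other cells among the members with 100 or more UMIs. It had 143 CPM in cycling and 6.06 CPM in other cells of the WT-labelled library, and 178 and 3.13 CPM in the ΔMPC-labelled library, log2 ratios of 4.56 (4.25 to 4.87) and 5.83 (5.54 to 6.13). Of its UMIs, 121 of 425 and 281 of 431 lay in cycling cells, and it was found in 51.7% and 58.9% of cycling cells and in 6.82% and 3.14% of the others. With more *Mki67* and *Top2a* UMIs (0, 1, 2 to 4, 5 or more) *Cdkn2c* had 5.95, 12.8, 29.3 and 220.3 CPM in the WT-labelled library. In the ΔMPC-labelled library it had 3.14, 2.67, 44.4 and 257 CPM. In the WT-labelled library 2 of 8 members were past 1.5-fold between cycling and other cells, beside 33.4% of all genes, and in the ΔMPC-labelled library 3 of 9 members, beside 29.6% of all genes.

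*Cdkn1a* was not lower in cycling cells. It had 192 CPM in cycling and 156 CPM in other cells of the WT-labelled library, and 336 and 276 CPM in the ΔMPC-labelled library, log2 ratios of 0.29 (0.06 to 0.52) and 0.28 (0.16 to 0.41). *Trp53* was at 0.39 (0.01 to 0.74) and 0.65 (0.43 to 0.86), the latter 0.55 and under 1.5-fold with TMM scaling, and *Gdf15*, from 9 and 27 UMIs in cycling cells, at 1.65 and 0.97. *Mdm2* had opposite signs, 0.44 (-0.09 to 0.92) in the WT-labelled library and -0.45 (-0.94 to -0.01) in the ΔMPC-labelled library, from 35 and 41 UMIs in cycling cells. *Cdkn2a* had 5 of its 7 UMIs in the 58 cycling cells of the WT-labelled library and 5 of its 23 UMIs in the 112 cycling cells of the other. Of the inhibitors that are not members, *Cdkn3* and *Cdkn2d* were higher in cycling cells, at 7.64 and 2.45 in the WT-labelled library and 6.52 and 2.81 in the ΔMPC-labelled library, and *Cdkn1c* was lower, at -1.05 and -1.01. Cycling cells were deeper, with medians of 14466 and 13771 UMIs against 12207 and 10960 in the other cells.

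Between the libraries, 2 of 5 members were past 1.5-fold in cycling cells, *Cdkn1a* and *Trp53*, beside 10.9% of all genes. In cells that were not cycling 4 of 9 members were, beside 17.1% of all genes. *Cdkn2b* was among the 9 only through its 106 UMIs in the ΔMPC-labelled library. In cycling cells *Cdkn1a* was at 0.81 (0.55 to 1.07) and *Trp53*, with 78.1 and 117 CPM, just past the threshold at 0.59 (0.17 to 1.01). In the cells that were not cycling *Cdkn2c* was lower in the ΔMPC-labelled library, with 304 UMIs or 6.06 CPM and 150 UMIs or 3.13 CPM, a log2 ratio of -0.95 (-1.25 to -0.67). In cycling cells it was 143 and 178 CPM, a log2 ratio of 0.32 (0.00 to 0.63). The near-equal level over all cells thus held ratios of opposite sign in the cycling and in the other cells. The ratio in cycling cells had a lower bound of 0.0025, close to 0. The share of cycling cells was larger in the ΔMPC-labelled library. Whether the ratio differed between cycling and other cells was not tested. The *Cdkn1a* ratio in cells that were not cycling was 0.82 (0.78 to 0.86), the same as over all cells to 2 decimals.

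Cells were further divided by sums of marker genes into 11 groups, each a range of a sum and not a cell type, of which 7 held 50 or more cells in both libraries. *Cdkn1a*, *Bax* and *Gdf15* were higher in the ΔMPC-labelled library in all 7 of these groups. *Trp53*, *Mdm2* and *Cdkn2b* were higher in 6, and *Cdkn1b* and *Cdkn2c* in 2. The groups are parts of the same 2 libraries and no repeats. How many of all genes were higher in as many groups was not counted, beside 62.1% above 0 over all cells. Over groups with 50 or more cells, *Cdkn1a* ranged from 102 CPM in the 50 cells with the *Lgr5* set (*Lgr5*, *Pappa2*, *Kdr*) to 192 CPM in cycling cells of the WT-labelled library. In the ΔMPC-labelled library it ranged from 158 CPM in the 50 cells with the *Fmo2* set (*Fmo2*, *Angpt2*, *Stc1*) to 380.1 CPM in the 161 Dpp4-type cells with *Krt7* or *Plet1*. The latter group, of which the WT-labelled library held 3 cells, also had the highest *Bax* of these groups, at 184 CPM. The next highest *Cdkn1a* levels, 346 CPM in the *Hmcn1* set, 336 CPM in cycling cells, 323 CPM in the *Wnt4* set and 312 CPM in the remaining Dpp4-type cells, had intervals that overlapped with at least 1 neighbor in that order.

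Part of the *Gdf15* and *Cdkn2b* UMIs lay in the cells with the *Spon1* set (*Spon1*, *Cldn2*, *Hsd11b2*, *Angpt4*), which made up 2.97% of the WT-labelled library and 19.3% of the ΔMPC-labelled library. These cells held 29.5% of the *Gdf15* UMIs and 42.7% of the *Cdkn2b* UMIs of the ΔMPC-labelled library, beside 5.03% and 10% in the WT-labelled library. Within them *Gdf15* had 6.63 CPM (9 UMIs) and 14.0 CPM (132 UMIs), and *Cdkn2b* 3.68 CPM (5 UMIs) and 4.98 CPM (47 UMIs) in the WT-labelled library and the ΔMPC-labelled library. With both libraries weighted to the same mix of the 7 groups, an alternative chosen after the data were seen, the log2 ratio was 0.92 for *Cdkn2b*, 1.30 for *Gdf15*, 0.84 for *Cdkn1a* and -0.18 for *Cdkn2c*. Among groups with 50 or more cells, *Trp53* was highest in cycling cells of the ΔMPC-labelled library, at 117 CPM, followed by tendon-type cells (*Chad*, *Tnmd*, *Cilp2*) at 100.03 CPM and the *Spon1* set at 91.3 CPM, each with an interval that overlapped the next. Outside cycling cells and among groups with 50 or more cells, *Cdkn2c* was highest in the *Fmo2* set of the WT-labelled library, at 17.0 CPM in 425 cells, beside 10.99 CPM in the 50 such cells of the other library. In the 35 adipocyte-type cells of the ΔMPC-labelled library, under that limit, *Trp53* had 40 UMIs or 112 CPM (79.9 to 152) and *Cdkn2c* 18 UMIs or 50.3 CPM (29.8 to 79.5).

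**Figure D5:**
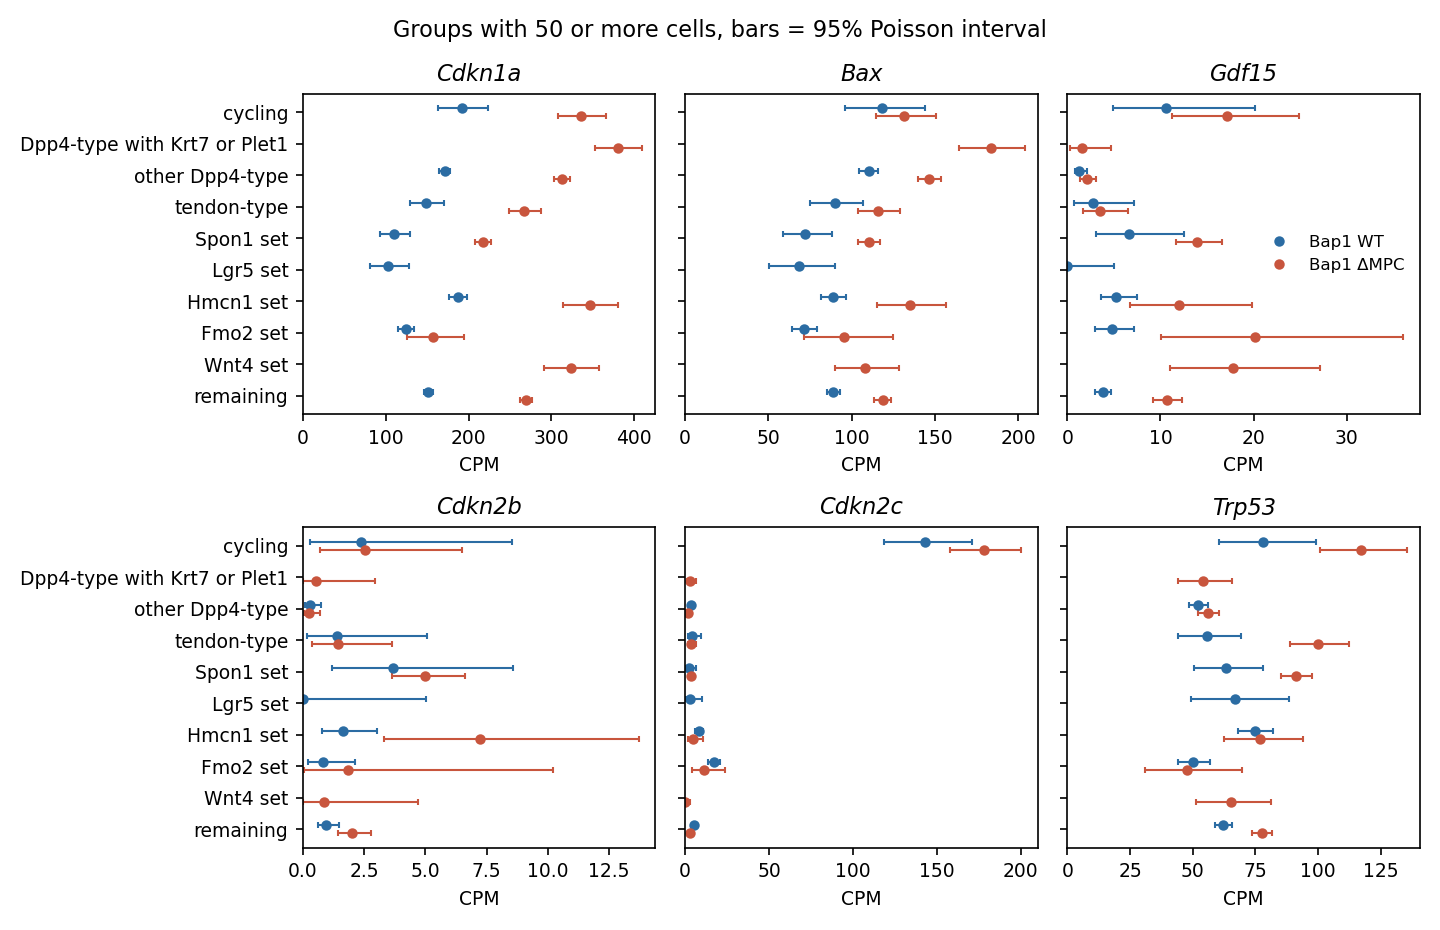
CPM of 6 members in the marker-defined groups with 50 or more cells, in the WT-labelled library (blue) and the ΔMPC-labelled library (red), with exact 95% Poisson intervals. *Cdkn1a* and *Bax* lie further right in the ΔMPC-labelled library in each of the 7 groups shown for both libraries. How many of all genes do so was not counted. *Cdkn2c* is above 100 CPM in cycling cells only.

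Members that were counted together in the same cells were compared in cells with 5000 or more UMIs. *Mdm2* was higher in cells with a *Cdkn1a* UMI than in cells without, at 33.8 against 26.8 CPM in the WT-labelled library and 37.6 against 28.4 CPM in the ΔMPC-labelled library. *Ccng1* was 36.2 against 30.9 CPM and 36.9 against 31.0 CPM. *Trp53* itself was not higher in cells with *Cdkn1a*, at 59.1 against 61.0 CPM and 74.4 against 80.4 CPM. *Bax* was 92.6 against 93.7 CPM in the WT-labelled library and 132 against 114 CPM in the ΔMPC-labelled library. *Gdf15* had 4.42 against 2.41 CPM in the WT-labelled library and 8.28 against 9.32 CPM in the ΔMPC-labelled library, where the interval of the log2 ratio held 0 (-0.48 to 0.14). Cells with a *Cdkn1a* UMI were deeper, with medians of 12917 against 11798 UMIs and 11588 against 10570 UMIs.

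Genes with the most similar pattern were sought for the 6 members with 1000 or more UMIs over 17 groups of cells with 50 or more cells, among 8148 genes. The points share libraries and depth, and the correlations are descriptions. The genes most like *Cdkn1a* were *Mpc1* (Pearson r of 0.96), *Cox6b1* (0.95) and *Lrrfip2* (0.95), those most like *Bax* were *Cast*, *Rnh1* and *Dctn2* (each 0.95), and those most like *Trp53* were *Mrps17* (0.89), *Rpsa* (0.87) and *Bex3* (0.85). For *Mdm2* they were *Herc2* (0.93), *Diablo* (0.83) and *Rhoq* (0.83), for *Ccng1* *Ablim1* (0.91), *Cavin1* (0.87) and *Ehbp1* (0.83), and for *Cdkn1b* *Gstp1* (0.81), *Mospd3* (0.70) and *Mr1* (0.70). Among the members themselves, r was 0.91 for *Cdkn1a* and *Bax*, 0.75 for *Mdm2* and *Bax* and 0.59 for *Mdm2* and *Cdkn1a*, and the lowest was -0.72 for *Trp53* and *Ccng1*.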

How the data were processed

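FAPs of 1 library per genotype were measured by 10x 3′ scRNA-Seq. Per the submitters' processing notes and the study's methods, reads were demultiplexed with bcl2fastq 2.20.0, checked with FastQC 0.11.7, aligned to mm10 and counted with Cell Ranger 3.1.0, and filtered in Seurat 3.2.1 for quality, doublets and non-FAPs, with cut-offs not given in the sources used here. The deposited values are UMI counts per gene and cell, not normalized. No cell was removed. Deposited cells held at least 1501 genes and under 5% mitochondrial UMIs.

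Counts were summed per library and cell group and scaled to CPM of all UMIs. Poisson intervals of a level, conditional binomial intervals of a ratio and Clopper-Pearson intervals of a share are exact, at 95%, and cover counting error only. Expected shares at 5000 UMIs follow the hypergeometric distribution. With 1 library per genotype no count model or test was fitted. A gene was called past the threshold at a 1.5-fold ratio with 100 or more UMIs in the groups together. Dpp4-type cells had a sum of 25 or more UMIs per 10000 and cycling cells 2 or more UMIs of the genes named. Only the ratio and its interval were checked on simulated counts, drawn per gene from Poisson distributions without differences between cells. The members and all lists were chosen with earlier results of these data known. All 10 members, *Bap1*, the 3 other CDK inhibitors, the 3 genes with the largest ratio of each list and the 3 genes most alike each member with 1000 or more UMIs are named. The likeness is Pearson's r of log2(CPM + 1) over cell groups. TMM factors came from edgeR 4.0.16 in R 4.3.3. Other steps used Python 3.11.15 with numpy 2.4.6, scipy 1.17.1 and pandas 2.3.3. Alternatives were TMM scaling, other thresholds and minimums, equal weight per cell and other cell mixes.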

Additional observations from a re-analysis of the deposited data

Results flagged for a closer look

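*Cdkn2c* drew attention because its ratio between the libraries had opposite signs in the cycling and the other cells. The log2 ratio of CPM in the ΔMPC-labelled over that in the WT-labelled library was 0.32 in cycling cells and -0.95 in cells that were not cycling. With 1 library per genotype, this difference was not tested. The *Fmo2* set held 82 of the 304 *Cdkn2c* UMIs outside cycling cells of the WT-labelled library. That set made up 10.4% of the cells of the WT-labelled library and 1.14% of the other. Its part in the ratio was not tested.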

How the results depend on the processing

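Of the alternatives to the values that answer a comparison, 126 stayed within the counting interval or within 1.5 times the count, 16 moved and none changed the sign of a called value. With TMM scaling the log2 ratio between the libraries was 0.24 for *Trp53*, 0.73 for *Cdkn1a*, -0.30 for *Cdkn1b*, -0.039 for *Ccng1* and 0.36 for *Bax*. For *Cdkn2c* it was -0.21 with each cell weighted equally, -0.35 with the same mix of Dpp4-type and cycling cells and -0.18 with the same mix of marker-defined groups. For *Cdkn1a* it was 0.76 with the same mix of immediate early bins. With a threshold below 1.5-fold, 5 of 9 members were past it between the libraries, all higher in the ΔMPC-labelled library. Of 41 other p53 targets, 21 were past this lower threshold, and 12 of the 21 were higher. Of 12388 genes 4541 were past it, and 2673 of these were higher. At 2-fold 5 of the 41 targets were past it, 3 of them higher, beside 957 of 12388 genes. At 3-fold 0 of 9 members and 2 of the 41 targets were, beside 385 of 12388 genes. Without cycling cells, 2 of 8 members were past 1.5-fold between Dpp4-type and other cells of the WT-labelled library, beside 2462 of 11169 genes. In the ΔMPC-labelled library 4 of 9 members were, in place of 5, beside 2483 of 11192 genes. With 10 or more expected UMIs required in the smaller group, cycling and other cells were compared again. In the WT-labelled library 0 of 6 members were then past 1.5-fold, beside 1856 of 7564 genes. *Cdkn2c* and *Gdf15*, the members past 1.5-fold there without this requirement, were left out by it. In the ΔMPC-labelled library 3 of 8 members were, beside 2213 of 9239 genes. The expected UMIs, the exclusion of cells with an immune UMI and the mixes of marker-defined groups and of immediate early bins were chosen after the data were seen. No paired analysis was possible because there was a single library for either genotype. Depth limits *Cdkn2a*, *Cdkn2b* and *Gdf15*, and every member in the 58 and 112 cycling cells.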
